A study of Mus musculus with 21 samples.

Results

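The miR-232724 clusters are a pair of paralogous miRNA gene clusters of the mouse, an a cluster (*Mir23a*, *Mir27a*, *Mir24-2*) and a b cluster (*Mir23b*, *Mir27b*, *Mir24-1*). The guide strands miR-23a-3p, miR-23b-3p, miR-27a-3p, miR-27b-3p, and miR-24-3p were taken by name from each deposited table, with any mmu- prefix removed, and make up 5 of 1934 miRNA names in all. In the virgin cohort 5 of 5 were measured, among 1909 names. In the breeding trial cohort miR-24-3p was measured, 1 among 1841 names, and miR-23a-3p, miR-23b-3p, miR-27a-3p, and miR-27b-3p were not analysed here. The passenger strands of the 6 hairpins were measured in both cohorts.

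Small RNAs were sequenced (small-RNA-seq) from the pituitary of female C57BL/6J mice with wild-type *Zeb1* (WT) or with 1 (*Zeb1 200H*) or 2 (*Zeb1 200M*) copies of a knock-in allele whose miR-200a/b sites are mutated. Virgin females were 8–12 weeks old and gave 3 WT, 4 *Zeb1 200H*, and 4 *Zeb1 200M* libraries, whereas females that had been through a breeding trial were 28–36 weeks old and gave 4 WT, 3 *Zeb1 200H*, and 3 *Zeb1 200M* libraries. Mice of both cohorts were killed at proestrus. The knock-in mice descend from independent embryonic stem cell clones, and the clone behind each library is not given in the sources used here.

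Guide strands are loaded into Argonaute and pair through their seed, bases 2 to 8, with sites in mRNAs, which are then repressed and degraded, whereas passenger strands of the same hairpins are mostly discarded. Clusters of miR-23, miR-27, and miR-24 are well expressed in endothelial cells, where miR-23 and miR-27 promote vessel growth. MiR-27 is also known for restraining adipogenesis, miR-23 for repressing glutaminase, and miR-24 for repressing cell-cycle genes.

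In the mouse genome build GRCm38 the 6 hairpins lie on the plus strand. On chromosome 8, *Mir23a* (ENSMUSG00000065611) spans 84208518 to 84208592, *Mir27a* (ENSMUSG00000065444) spans 84208672 to 84208758, and *Mir24-2* (ENSMUSG00000065541) spans 84208815 to 84208921. On chromosome 13, *Mir23b* (ENSMUSG00000065599) spans 63300484 to 63300557, *Mir27b* (ENSMUSG00000065475) spans 63300712 to 63300784, and *Mir24-1* (ENSMUSG00000105904) spans 63301208 to 63301275. The a cluster covers 404 bp, with 79 and 56 bp between neighbouring hairpins, and the b cluster covers 792 bp, with gaps of 154 and 423 bp. *Mir23a* and *Mir27a* overlap no annotated transcript other than those of miRNA genes, and *Mir24-2* touches an exon of the lincRNA *Gm26532* by 2 bp. The b hairpins lie inside the protein-coding gene *2010111I01Rik* on the same strand, within an intron of 9 of 9 overlapping transcripts for *Mir23b*, 8 of 9 for *Mir27b*, and 7 of 11 for *Mir24-1*. They also fall in an intron of *Fancc* on the opposite strand.

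**Figure D1:**
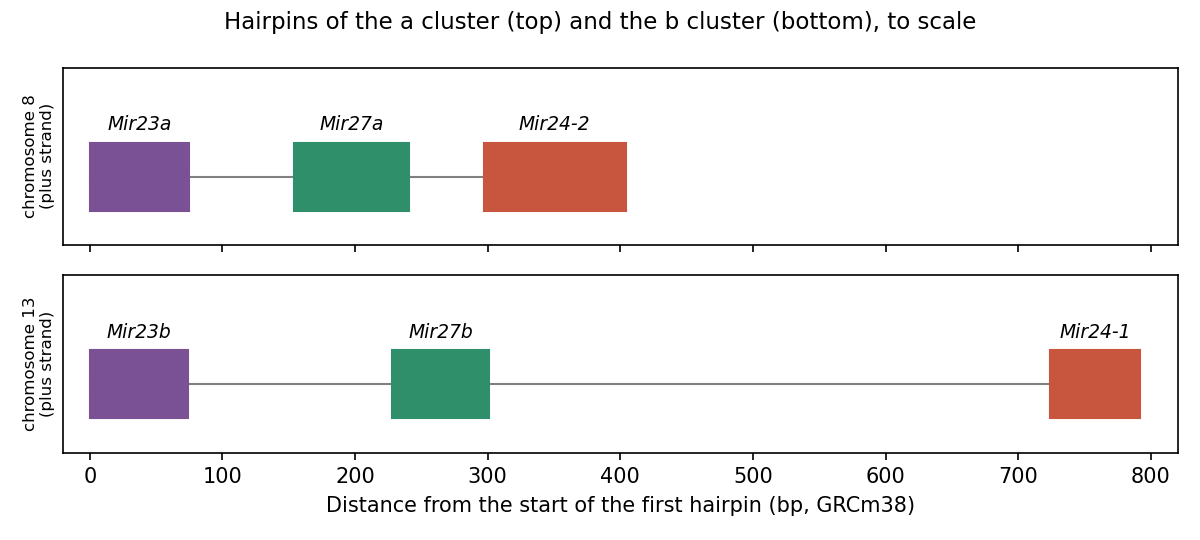
Hairpins of the a cluster on chromosome 8 (top) and the b cluster on chromosome 13 (bottom), drawn to scale as boxes from the start of the first hairpin, with distance in bp of GRCm38. The hairpin order is the same in both, over 404 bp in the a cluster and 792 bp in the b cluster.

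The sequences of miR-23a-3p, miR-27a-3p, miR-27b-3p, and miR-24-3p show what separates the miR-27 paralogs and the 3 seeds. They come from RefSeq (GRCm38.p6), where 10 of the 11 guide and passenger names matched, and capitals mark the seed, bases 2 to 8. The miR-23a-3p seed and the miR-27 seed differ from each other and from that of miR-24.
miR-23a-3p: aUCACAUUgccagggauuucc
miR-27a-3p: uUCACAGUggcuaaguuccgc
miR-27b-3p: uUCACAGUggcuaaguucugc
miR-24-3p: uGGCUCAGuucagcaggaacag
MiR-27a-3p and miR-27b-3p share their seed and differ over 21 bases by a single substitution, C19U, written from miR-27a-3p to miR-27b-3p with positions counted from 1 at the 5′ end. The authors matched the first 19 nt of reads in the virgin cohort, which separates these paralogs by the last matched base, and the first 18 nt in the breeding trial cohort, which are identical between them. MiR-24-3p comes from both clusters, and its reads do not tell which hairpin they came from. The passenger strands do, since miR-24-2-5p is from the a cluster and miR-24-1-5p from the b cluster.
miR-24-2-5p: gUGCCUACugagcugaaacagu
miR-24-1-5p: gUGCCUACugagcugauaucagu
These passenger strands share a seed and first differ at position 17, within the matched 18 and 19 nt.

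The virgin libraries held 3816917 to 10806313 counted reads (median 9698685), and the breeding trial libraries 60037 to 191650. A read of miR-24-3p was therefore 1 of 24005 to 131940 in the virgin cohort and 1 of 1066 to 2641 in the breeding trial cohort. Levels are given as CPM of counted reads, a description of reads and not of molecules. The smallest virgin library, WT replicate 1, had a TMM factor (edgeR's scaling factor for composition) of 0.616, against 0.943 to 1.12 in the other 10 libraries. Because this library stands apart, comparisons with WT in the virgin cohort are also given without it.

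MiR-24-3p was the most abundant guide strand of the clusters in WT pituitary of virgin females, at 9329 ± 2646 CPM (SD, n = 3). This was 0.933% of counted reads and gave it rank 22 among 1388 miRNAs with a count. It was followed by miR-27a-3p with 6392 ± 1648 CPM (rank 31), miR-23a-3p with 5663 ± 2781 (rank 35), miR-23b-3p with 4062 ± 1397 (rank 44), and miR-27b-3p with 3186 ± 1228 (rank 53). WT replicate 1 was the lowest WT library for each strand, and for miR-27b-3p the other WT libraries also differed (SD 853 CPM without it, n = 2), yet within a library the order was the same in 11 of 11 virgin libraries. Without WT replicate 1, WT means were 10849 CPM for miR-24-3p, 7342 for miR-27a-3p, 7269 for miR-23a-3p, 4868 for miR-23b-3p, and 3804 for miR-27b-3p.

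Steps in this order differed in size. MiR-24-3p held 1.20 to 1.53 reads per read of miR-27a-3p, with a median of 1.36 over 11 virgin libraries. MiR-27a-3p and miR-23a-3p, from neighbouring hairpins, were nearly equal in most libraries, with a ratio of 1.00 to 1.16 in 10 libraries, whereas WT replicate 1 reached 1.83. MiR-23b-3p over miR-27b-3p ran from 1.07 to 1.503 (median 1.13), highest in WT replicate 4. The b cluster thus had more miR-23 than miR-27 reads in each library, and the a cluster had more miR-27 than miR-23 reads.

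To ask how the guide strands differed between genotypes, their CPM in each virgin library is given first. MiR-24-3p, the strand shared by both clusters, had 6289, 10579.9, and 11117 CPM in WT replicates 1, 2, and 4, 11758, 11449, 11203, and 11773 CPM in *Zeb1 200H* replicates 1 to 4, and 12547, 12665, 12717, and 12118 CPM in *Zeb1 200M* replicates 1 to 4. The 3 groups did not overlap in CPM, with each *Zeb1 200M* library above each *Zeb1 200H* library, and WT replicate 1 far below the other 2 WT libraries.

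MiR-27a-3p, a repressor of adipogenic genes from the a cluster, had 4491, 7409, and 7275 CPM in WT replicates 1, 2, and 4, 8659, 8640.2, 8306, and 9807 CPM in *Zeb1 200H*, and 9197, 8866, 9622, and 8641 CPM in *Zeb1 200M*. MiR-27b-3p, its b cluster paralog with the same seed, had 1951, 4407, and 3200.3 CPM in WT, 4231, 4319, 4347, and 4419.8 CPM in *Zeb1 200H*, and 4292, 4588, 4618, and 4571 CPM in *Zeb1 200M*. All 8 mutant libraries lay above the WT libraries in miR-27a-3p, and mutant groups overlapped each other. In miR-27b-3p, WT replicate 2 lay within the mutant range, and WT replicates 1 and 4 lay below it.

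MiR-23a-3p had 2452, 7298, and 7239 CPM in WT, 8469, 8393, 7708, and 8533 CPM in *Zeb1 200H*, and 8948, 8827, 8977, and 7424 CPM in *Zeb1 200M*. MiR-23b-3p had 2449.9, 4926, and 4809.9 CPM in WT, 4953, 4758, 4674, and 5012 CPM in *Zeb1 200H*, and 5057, 5176, 5201, and 4869.8 CPM in *Zeb1 200M*. For miR-23a-3p the WT libraries were below all 8 mutant libraries, by a margin that was smallest between WT replicate 2 and *Zeb1 200M* replicate 4. For miR-23b-3p WT replicates 2 and 4 lay among the mutant libraries, and WT replicate 1 was far below the other 10 libraries. In these bulk samples, fewer cells of a type and less RNA per cell cannot be told apart.

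**Figure D2:**
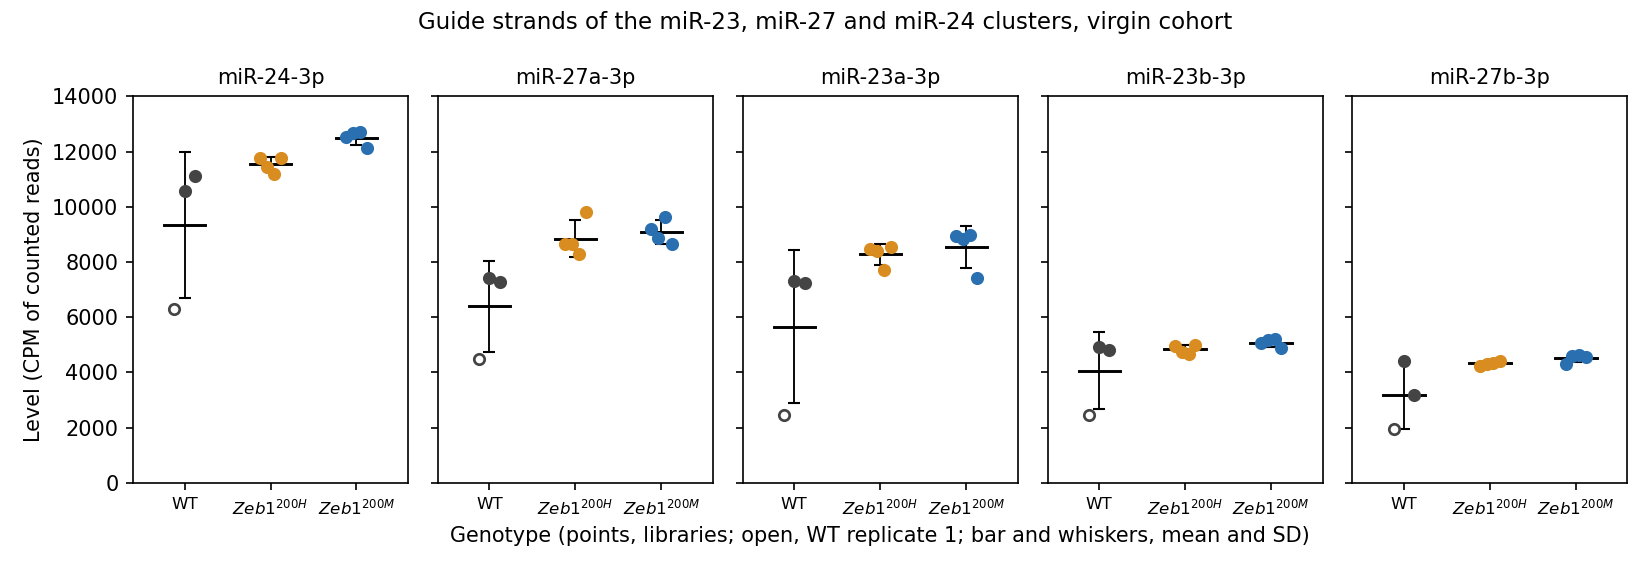
CPM of counted reads of the 5 guide strands in each virgin library by genotype, with points for libraries (open, WT replicate 1), bars for means, and whiskers for SD. WT replicate 1 is the lowest library for each strand, from 1951 CPM of miR-27b-3p to 6289 CPM of miR-24-3p, and the mutant libraries of miR-24-3p sit between 11203 and 12717 CPM.

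Compared with WT, *Zeb1 200M* pituitary of virgin females had log2 fold changes of 0.30 for miR-23a-3p (SE 0.226, 95% CI −0.22 to 0.81), 0.16 for miR-27b-3p (−0.21 to 0.53), 0.14 for miR-27a-3p (−0.12 to 0.41), 0.07 for miR-24-3p (−0.19 to 0.33), and −0.02 for miR-23b-3p (−0.32 to 0.29). Each interval includes 0. By edgeR's quasi-likelihood F test with Benjamini-Hochberg adjustment over 678 miRNAs, 0 of 5 guide strands were differentially expressed, beside 44 miRNAs or 6.49% of all tested. At an unadjusted p below 0.05 the number was also 0, as it was for calls by DESeq2 and by limma voom with quality weights. Groups did not overlap in CPM for 3 of 5 guide strands (miR-23a-3p, miR-27a-3p, miR-24-3p), beside 35.1% of all miRNAs tested. The median log2 fold change was 0.14 over the 5 strands and −0.00 over all miRNAs.

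Without WT replicate 1 the values for *Zeb1 200M* against WT were 0.15 for miR-27a-3p (SE 0.0695, CI −0.01 to 0.30), 0.09 for miR-27b-3p, 0.07 for miR-23a-3p, 0.05 for miR-24-3p, and −0.10 for miR-23b-3p. The value for miR-23a-3p thus moved from 0.30 to 0.07 with a single library. Of 703 miRNAs, 168 or 23.9% were called by edgeR without WT replicate 1, among them 0 of the 5 guide strands, also at an unadjusted p below 0.05. Without WT replicate 2, miR-27b-3p had 0.36 (CI 0.03 to 0.69, edgeR adjusted p = 0.178), and miR-23a-3p had 0.46 (CI −0.13 to 1.04). MiR-27b-3p was then the 1 guide strand of 5 at an unadjusted p below 0.05, beside 178 of 683 miRNAs. With library totals alone the 1 guide strand of 5 at an unadjusted p below 0.05 was miR-27a-3p, at 0.51 (edgeR adjusted p = 0.139), beside 172 of 678 miRNAs.

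The comparison of *Zeb1 200H* with WT shares these WT libraries. Log2 fold changes in virgin females were 0.31 for miR-23a-3p (SE 0.219, CI −0.20 to 0.81), 0.16 for miR-27a-3p (−0.11 to 0.43), 0.15 for miR-27b-3p (−0.21 to 0.51), 0.01 for miR-24-3p (−0.25 to 0.26), and −0.03 for miR-23b-3p (−0.33 to 0.27). Of 672 miRNAs, 34 or 5.06% were differentially expressed by edgeR, and 0 of 5 guide strands were among them, with 0 at an unadjusted p below 0.05 and 0 by DESeq2 and limma voom. In CPM, 3 of 5 guide strands (miR-23a-3p, miR-27a-3p, miR-24-3p) had groups that did not overlap, beside 33.2% of all miRNAs. Without WT replicate 1, 21.6% of 699 miRNAs were called by edgeR and again 0 of 5 guide strands, also at an unadjusted p below 0.05. The values were then 0.14 for miR-27a-3p (SE 0.0760, CI −0.02 to 0.31), 0.06 for miR-23a-3p, 0.05 for miR-27b-3p, −0.04 for miR-24-3p, and −0.13 for miR-23b-3p. The sign for miR-24-3p in *Zeb1 200H* therefore changed with this library. MiR-27b-3p had 0.35 without WT replicate 2 (CI 0.03 to 0.68, edgeR adjusted p = 0.188). It was then the 1 guide strand of 5 at an unadjusted p below 0.05, beside 169 of 688 miRNAs. With library totals alone this was miR-27a-3p, at 0.47 (edgeR adjusted p = 0.206), beside 150 of 672 miRNAs.

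The separation in CPM depended on how libraries were scaled. With library totals alone, the median of all miRNAs was 0.34 in *Zeb1 200M* and 0.29 in *Zeb1 200H* against WT of the virgin cohort, and the guide strands had medians of 0.50 and 0.44. After TMM scaling, miR-27a-3p had 7295, 7857, and 7422 scaled CPM in WT replicates 1, 2, and 4, 8330.0, 7959.6, 8019, and 9224 in *Zeb1 200H*, and 8639, 7923, 8659.5, and 8099 in *Zeb1 200M*. The 8 mutant libraries were still above the WT libraries, with WT replicate 2 and *Zeb1 200M* replicate 2 closest. The share of all miRNAs without overlap on this scale was not determined, so the separation is not read as particular to miR-27a-3p. On the same scale miR-24-3p had 10926 ± 617 CPM (SD, n = 3) in WT, 10937 ± 329 (n = 4) in *Zeb1 200H*, and 11476 ± 213 (n = 4) in *Zeb1 200M*, and WT overlapped both mutant groups. WT also overlapped both for miR-23a-3p (3983 to 7739 CPM in WT), miR-23b-3p (3980 to 5223), and miR-27b-3p (3169 to 4673).

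The mutant genotypes of the virgin cohort were compared with each other as *Zeb1 200M* against *Zeb1 200H*. Log2 fold changes ran from −0.02 for miR-27a-3p (SE 0.0618, CI −0.15 to 0.12) to 0.06 for miR-24-3p (SE 0.0462, CI −0.04 to 0.16), with −0.01 for miR-23a-3p, 0.01 for miR-23b-3p, and 0.01 for miR-27b-3p. Of 675 miRNAs, edgeR called 15 or 2.22% differentially expressed, with 0 of 5 guide strands among them, 0 at an unadjusted p below 0.05, and 0 by DESeq2 and limma voom. Groups did not overlap in CPM for 1 of 5 (miR-24-3p), beside 7.85% of all miRNAs. With library totals alone miR-24-3p had 0.12 (SE 0.0445, edgeR adjusted p = 0.319), where the median of all miRNAs was 0.04.

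The ratio of a to b paralog within a library needs no scaling between libraries, and takes the authors' assignment of reads to miR-23a-3p or miR-23b-3p as it is. MiR-23a-3p exceeded miR-23b-3p in 11 of 11 virgin libraries, and miR-27a-3p exceeded miR-27b-3p in 11 of 11. For miR-23, the ratio was 1.00, 1.48, and 1.51 in WT replicates 1, 2, and 4, 1.71, 1.76, 1.65, and 1.70 in *Zeb1 200H* replicates 1 to 4, and 1.77, 1.71, 1.73, and 1.52 in *Zeb1 200M* replicates 1 to 4. The WT libraries lay below all 8 mutant libraries, with *Zeb1 200M* replicate 4 next to WT replicate 4. The mean log2 ratio was 0.39 ± 0.33 (SD, n = 3) in WT, 0.77 ± 0.04 (n = 4) in *Zeb1 200H*, and 0.75 ± 0.10 (n = 4) in *Zeb1 200M*.

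Differences of the miR-23 ratio from WT were 0.36 log2 in *Zeb1 200M* and 0.38 log2 in *Zeb1 200H*, with an exact two-sided permutation p = 0.0571 in each, the smallest p that 3 against 4 libraries allow (Benjamini-Hochberg adjusted p = 0.429 over 15 ratio comparisons). Of the 8 mutant libraries, 8 lay on the same side of WT. Without WT replicate 1 the differences were 0.17 and 0.19 log2 (exact p = 0.133 each, the smallest possible), and with summed counts they were 0.21 and 0.24. The size of the difference therefore depended on WT replicate 1, whereas its direction did not. Between *Zeb1 200M* and *Zeb1 200H* the ratio differed by −0.02 log2 (exact p = 0.857).

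For miR-27, the ratio of a to b was 2.30, 1.68, and 2.27 in WT replicates 1, 2, and 4, 2.05, 2.00, 1.91, and 2.22 in *Zeb1 200H*, and 2.14, 1.93, 2.08, and 1.89 in *Zeb1 200M*. WT libraries held both the lowest and the highest ratio, and the 3 genotypes overlapped. Differences were −0.04 log2 in *Zeb1 200M* and −0.02 log2 in *Zeb1 200H* against WT (exact permutation p = 0.857 and 0.971), and −0.02 log2 between the mutants (exact p = 0.743). The low WT value came from replicate 2, where miR-27b-3p reached 4407 CPM, against 3200.3 CPM in WT replicate 4. Without WT replicate 2, WT lay above both mutant groups. Differences from WT were then −0.19 log2 in *Zeb1 200M* and −0.16 log2 in *Zeb1 200H* (exact permutation p = 0.133 each, the smallest possible). Without WT replicate 1 they were 0.040 and 0.062 log2, and WT overlapped both mutant groups.

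**Figure D3:**
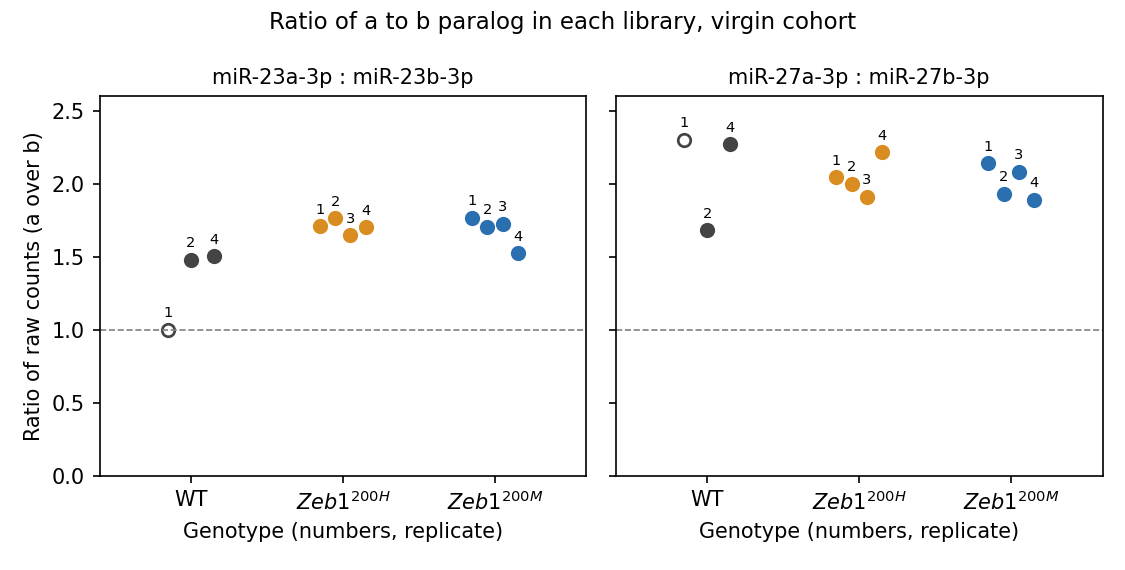
Ratio of raw counts of the a over the b paralog in each virgin library for miR-23-3p (left) and miR-27-3p (right) by genotype, with replicate numbers at the points, WT replicate 1 open, and a dashed line at equal counts. The miR-23 ratio is 1.00 to 1.51 in WT and 1.52 to 1.77 in mutants, whereas the miR-27 ratio overlaps, at 1.68 to 2.30 in WT and 1.89 to 2.22 in mutants.

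Passenger strands were rare in comparison with guides. Over all virgin libraries, 803155 reads of miR-23a-3p stood beside 713 reads of miR-23a-5p, a ratio of 1126, and the ratio was 2524 for miR-23b, 2456 for miR-27a, and 513 for miR-27b. MiR-23a-5p had 34 to 81 reads in a library, miR-27b-5p 52 to 98, miR-27a-5p 11 to 48, and miR-23b-5p 0 to 32. MiR-23a-5p exceeded miR-23b-5p in 11 of 11 libraries, the order of the guides. The miR-27 passengers went the other way, since miR-27a-5p was below miR-27b-5p in 11 of 11 libraries, with a ratio of 0.187 to 0.616 against 1.68 to 2.30 for their guides. Genotypes overlapped in both passenger ratios, and exact permutation p values were 0.286 to 0.8 over their 6 comparisons (adjusted p = 0.918 in each).

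MiR-24-2-5p and miR-24-1-5p are the passengers of the a and b cluster hairpins of miR-24. Their ratio need not be that of the miR-24-3p made by each cluster. For miR-27 the passenger ratio (0.187 to 0.616) and the guide ratio (1.68 to 2.30) went opposite ways. MiR-24-2-5p had 181, 225, and 261 CPM in WT replicates 1, 2, and 4, 286, 288, 213, and 292 CPM in *Zeb1 200H*, and 331, 322, 162, and 292 CPM in *Zeb1 200M*. MiR-24-1-5p had 29.1, 26.7, and 20.7 CPM in WT, 39.1, 13.0, 31.5, and 28.8 CPM in *Zeb1 200H*, and 40.1, 38.2, 36.0, and 38.4 CPM in *Zeb1 200M*. The a cluster strand was the more abundant in 11 of 11 libraries, its genotypes overlapped, and *Zeb1 200M* replicate 3 was its lowest library. For the b cluster strand the 4 *Zeb1 200M* libraries lay above the 3 WT libraries in CPM, and *Zeb1 200H* spread over both. Such groups did not overlap for 35.1% of all miRNAs. After TMM scaling WT replicate 1 was the highest of 11 libraries for this strand, at 47.2 CPM, against 32.4 to 37.7 in *Zeb1 200M*.

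As a share of both miR-24 passengers, miR-24-2-5p made up 86.2% (95% Clopper-Pearson CI 83.6 to 88.5), 89.4% (88.2 to 90.5), and 92.6% (91.6 to 93.6) in WT replicates 1, 2, and 4. These intervals cover counting error only. The share was 88.0, 95.7, 87.1, and 91.0% in *Zeb1 200H* and 89.2, 89.4, 81.8, and 88.4% in *Zeb1 200M*, so that the highest and the lowest of 11 libraries were both mutant. Differences in the log2 ratio were −0.32 in *Zeb1 200M* and 0.24 in *Zeb1 200H* against WT and −0.56 between the mutants (exact permutation p = 0.457, 0.8, and 0.343). Leaving out 1 library at a time moved them over −0.56 to −0.050, −0.13 to 0.51, and −0.76 to −0.19. Their size therefore rested on single libraries, as did the direction in *Zeb1 200H* against WT.

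In edgeR, the log2 fold change of miR-24-1-5p was 0.15 for *Zeb1 200M* against WT (SE 0.264, Benjamini-Hochberg adjusted p = 0.774). Without WT replicate 1 it was 0.52 (SE 0.137, edgeR adjusted p = 0.0182), and limma voom with quality weights gave 0.48 (adjusted p = 0.0230). The edgeR call thus depended on leaving out WT replicate 1, and why limma voom also gave it was not tested. With 168 of 703 miRNAs called by edgeR without that library, and 184 of 678 by limma voom, it is 1 of many. In *Zeb1 200H* against WT miR-24-1-5p had −0.24 (SE 0.408, edgeR adjusted p = 0.779), or 0.12 without WT replicate 1. MiR-24-2-5p had −0.07 and −0.06 in *Zeb1 200M* and *Zeb1 200H* against WT, with adjusted p = 0.898 and 0.879 by edgeR. The other 4 passenger strands were also not called in any comparison of the virgin cohort.

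In the older females of the breeding trial cohort, miR-24-3p ranked 17th of 743 miRNAs with a count in WT. It had 13323, 13841, 14199, and 13780.3 CPM in WT replicates 1 to 4, 17263, 17756, and 16166 CPM in *Zeb1 200H* replicates 1, 3, and 4, and 16506, 15863, and 15919 CPM in *Zeb1 200M* replicates 1 to 3. All 6 mutant libraries lay above the 4 WT libraries, and the mutant groups overlapped each other. Means were 13786 ± 359.5 (SD, n = 4), 17062 ± 814 (n = 3), and 16096 ± 356 (n = 3) CPM in WT, *Zeb1 200H*, and *Zeb1 200M*.

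After TMM scaling the separation was gone. WT libraries then held 14515, 14567, 15551, and 15498 scaled CPM, *Zeb1 200H* libraries 16944, 17219.8, and 15422, and *Zeb1 200M* libraries 15499.7, 14986, and 14713. The WT range covered 1 of 3 *Zeb1 200H* libraries and 3 of 3 *Zeb1 200M* libraries. The edgeR log2 fold change of miR-24-3p was −0.01 for *Zeb1 200M* against WT (SE 0.0876, CI −0.19 to 0.17, adjusted p = 0.971), 0.14 in *Zeb1 200H* against WT (SE 0.0978, CI −0.07 to 0.34, adjusted p = 0.374), and −0.13 between the mutants (SE 0.111, CI −0.35 to 0.09, adjusted p = 0.673).

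With library totals alone miR-24-3p was called higher in both comparisons with WT, at 0.23 in *Zeb1 200M* (edgeR adjusted p = 0.0264, 3 of 3 libraries above WT) and 0.31 in *Zeb1 200H* (adjusted p = 0.0190, 3 of 3 libraries). Of all miRNAs, 110 of 276 and 69 of 267 were called under this scaling. Their median was 0.24 and 0.18, so that relative to it miR-24-3p was level in *Zeb1 200M* and higher in *Zeb1 200H*. Going from TMM to library totals moves the miRNAs of a comparison together, so these calls do not set miR-24-3p apart from the other miRNAs.

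**Figure D4:**
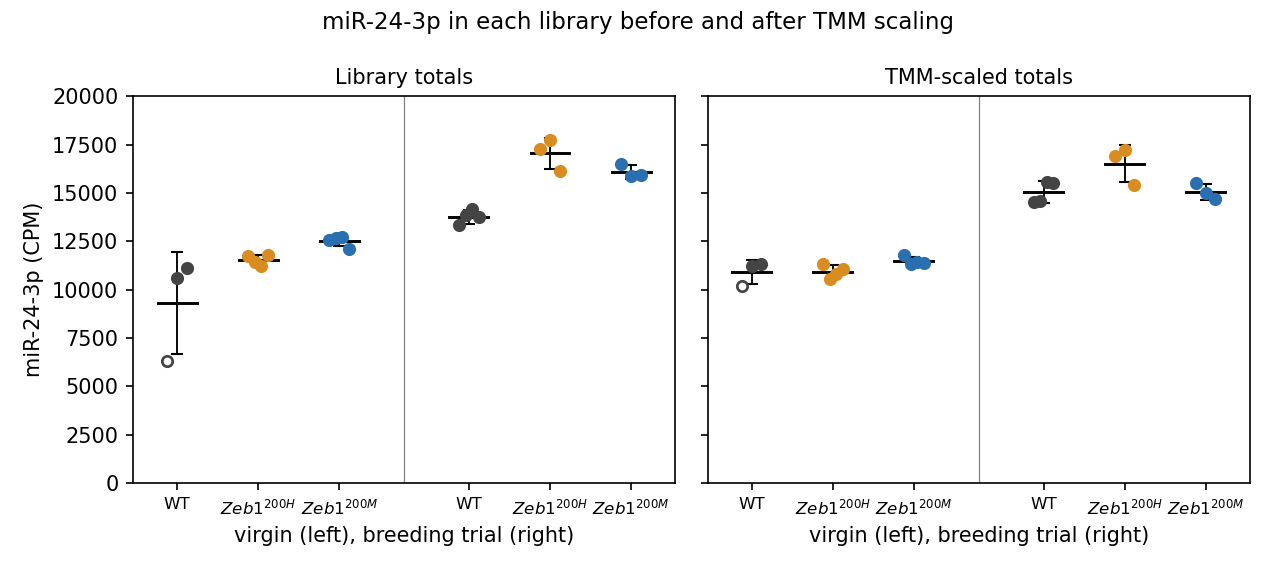
CPM of miR-24-3p in each library by genotype and cohort, on library totals (left) and TMM-scaled totals (right), with points for libraries (open, WT replicate 1 of the virgin cohort), bars for means, and whiskers for SD. In the breeding trial cohort WT is at 13323 to 14199 and *Zeb1 200M* at 15863 to 16506 CPM on totals, and both overlap after scaling, at 14515 to 15551 and 14713 to 15499.7.

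Over the miRNAs of the breeding trial cohort, edgeR called 35.9% of 276 miRNAs in *Zeb1 200M* against WT, 12.0% of 267 in *Zeb1 200H* against WT, and 1.09% of 274 between the mutants. MiR-24-3p was not among them, so that 0 of 1 guide strand was called in each comparison, with 0 at an unadjusted p below 0.05 and 0 by DESeq2 and limma voom. Groups did not overlap in CPM for 1 of 1 guide strand against WT in *Zeb1 200M* (42.4% of all miRNAs) and in *Zeb1 200H* (29.6%), and for 0 of 1 between the mutants (18.6%).

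MiR-24-2-5p had 39, 37, 16, and 73 reads in WT of the breeding trial cohort, 53, 15, and 51 in *Zeb1 200H*, and 39, 41, and 47 in *Zeb1 200M*. MiR-24-1-5p had 0 to 9 reads and was below miR-24-2-5p in 10 of 10 libraries. At this depth the share of miR-24-2-5p in both passengers was 78.9% (Clopper-Pearson CI 54.4 to 93.9) to 100% (93.3 to 100) in a library, and genotypes overlapped. Log2 fold changes of miR-24-2-5p were 0.12 in *Zeb1 200M* and 0.21 in *Zeb1 200H* against WT and −0.07 between the mutants, with adjusted p = 0.740, 0.609, and 0.908 by edgeR. The miR-23 and miR-27 passengers had 0 to 3 reads in each library, too few to compare.

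Reads of miR-24-3p per read of its passengers were 29.9 to 64.4 in the virgin cohort and 33.4 to 62.8 in the breeding trial cohort, so the cohorts overlapped in this ratio. Whether genotype acted differently on miR-24-3p in the 2 cohorts was tested as an interaction in edgeR over names in both dictionaries. The difference between cohorts was −0.06 log2 for *Zeb1 200M* (SE 0.131, CI −0.33 to 0.21, adjusted p = 0.973) and 0.12 log2 for *Zeb1 200H* (SE 0.131, CI −0.15 to 0.40, adjusted p = 0.771). These were, leaving out WT replicate 1 of the virgin cohort, 0.010 (CI −0.22 to 0.24, edgeR adjusted p = 0.9998) and 0.21 (CI −0.02 to 0.43, adjusted p = 0.740). Of 566 miRNAs tested, edgeR called 0 (0%) for *Zeb1 200M* and 0 (0%) for *Zeb1 200H*, with 44 and 49 at an unadjusted p below 0.05, and no other tool was run. Age, parity, RNA input, sequencer, and dictionary differ between the cohorts and cannot be told apart.

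The miRNAs outside the hairpins whose TMM-scaled log2 CPM was most like that of miR-24-3p over 11 virgin libraries were miR-221-3p (Pearson r = 0.848), miR-218-5p (0.838), and miR-342-3p (0.833), among 492 miRNAs with a median r of 0.0980. Spearman's rho was 0.818, 0.782, and 0.736, and without WT replicate 1 r was 0.640, 0.615, and 0.689. Of the other guide strands, miR-23b-3p (0.741) and miR-23a-3p (0.727) were more like miR-24-3p than were miR-27a-3p (0.479) and miR-27b-3p (0.424). Without WT replicate 1 these were 0.424, 0.268, 0.243, and −0.12, so the likeness among guide strands rested on that library.

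For miR-27b-3p the nearest were miR-452-5p (r = 0.839), miR-450a-5p (0.834), and miR-505-3p.1 (0.811), and here Spearman's rho was 0.418, 0.509, and 0.355 and r without WT replicate 1 was 0.723, 0.669, and 0.697. Among the guide strands its r was 0.663 with miR-23a-3p, 0.578 with its a cluster paralog miR-27a-3p, and 0.540 with its cluster neighbour miR-23b-3p, and without WT replicate 1 these were 0.0292, 0.337, and 0.00353. In the breeding trial cohort miR-24-3p was most like let-7e-5p (0.953), miR-146a-5p (0.932), and let-7f-5p (0.848) over 10 libraries and 160 miRNAs, where the median r was 0.0208. These correlations are descriptions, since their points share genotype groups, library depth, and scaling.

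Markers of other cell types were measured in the same libraries, as CPM on library totals. On this scale the median log2 fold change of all miRNAs against WT was 0.34 (*Zeb1 200M*) and 0.29 (*Zeb1 200H*) in virgin females. It was 0.24 and 0.18 in the breeding trial cohort. Groups did not overlap for 35.1 and 33.2%, and for 42.4 and 29.6%, of all miRNAs. Marker levels after TMM scaling were not determined, so separation in CPM is not read as a change that markers and guide strands share. Of 4 endothelial and mural markers, 3 were measured in the virgin cohort, with none at 0 and miR-143-3p the most abundant in 7 of 11 libraries, miR-126a-5p in 3, and miR-145a-5p in 1. Summed, they had 2371, 3722, and 3617 CPM in WT replicates 1, 2, and 4, 5159, 4962, 3622, and 5086 CPM in *Zeb1 200H*, and 6126, 5673, 3669, and 5375 CPM in *Zeb1 200M*. In the breeding trial cohort 4 of 4 were measured, with none at 0 and miR-126a-3p the most abundant in 10 of 10 libraries, and summed to 10010, 10471, 10369, and 10378 CPM in WT, 13972, 12676, and 14034 CPM in *Zeb1 200H*, and 15924, 15388, and 14404 CPM in *Zeb1 200M*. Like miR-24-3p in CPM, the summed list was higher in all 6 mutant libraries of the breeding trial cohort than in WT. Of its members there, miR-145a-5p overlapped (2077 to 2668 CPM in WT, 2254 to 3730 in mutants), and the others did not. In the virgin cohort the summed list overlapped between WT and mutants through miR-143-3p, which had 591 CPM in *Zeb1 200H* replicate 3 and 26.1 CPM in *Zeb1 200M* replicate 3. The other markers did not overlap, with 504 to 1416 CPM in WT and 1462 to 1775 in mutants for miR-126a-5p, and 645 to 1198 and 1426 to 1994 for miR-145a-5p. The part of these markers in the levels of the guide strands was not tested.

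Neuronal markers (4 of 4 measured, none at 0, miR-124-3p the most abundant in 11 of 11 libraries) summed to 1301, 2581, and 2867 CPM in WT of the virgin cohort, 5569.9, 5713, 6023, and 6127 CPM in *Zeb1 200H*, and 9056, 7768, 9026, and 6253 CPM in *Zeb1 200M*. Epithelial markers, the miR-200 strands (5 of 5 measured, none at 0, miR-141-3p the most abundant in 10 of 11 libraries), summed to 68794, 55783, and 55349.9 CPM in WT, 13259.7, 11592, 14142, and 12254 CPM in *Zeb1 200H*, and 6981, 6687, 6655, and 7186 CPM in *Zeb1 200M*. The paper cites reports that ZEB1 directly targets the miR-200 loci, so this list need not track a cell type here. WT and mutant libraries did not overlap in either summed list, as in the CPM of miR-24-3p, miR-27a-3p, and miR-23a-3p, and the part of these lists in those levels was not tested. Of the neuronal members in the virgin cohort, miR-128-3p (145 to 500 CPM in WT, 487 to 666 in mutants) and miR-138-5p (400 to 705 and 597 to 1018) overlapped. MiR-124-3p and miR-9-5p did not overlap. Neuronal markers of the breeding trial cohort, with miR-124-3p the most abundant in 8 of 10 libraries, ran from 2854 to 3548 CPM in WT and from 6179.5 to 11408 CPM in mutants, and epithelial markers, with miR-141-3p the most abundant in 6 of 10 libraries and miR-200c-3p in 4, from 61385 to 63775 CPM in WT and from 7152 to 13311 CPM in mutants. Of the neuronal members there, miR-9-5p (226 to 388 CPM in WT, 250 to 797 in mutants) and miR-128-3p (452 to 657 and 600 to 945) overlapped. MiR-124-3p and miR-138-5p did not.

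Pituitary endocrine markers (3 of 3 measured, none at 0, miR-7a-5p the most abundant in 11 of 11 virgin and 7 of 10 breeding trial libraries) had 269425 to 368951 CPM in WT of the virgin cohort. The *Zeb1 200H* libraries had 253180.1 to 277444 CPM, and the *Zeb1 200M* libraries 231804 to 279906 CPM. Breeding trial libraries had 288001 to 314366 CPM in WT, 263402 to 289256 with 1 mutant copy, and 246486 to 260270.6 with 2, so that *Zeb1 200M* lay below WT. Their members went different ways, since WT replicate 1 of the virgin cohort was the highest of 11 libraries for miR-7a-5p (183265 CPM) and miR-375-3p (145158 CPM) and the lowest for miR-7b-5p (40527 CPM). MiR-375-3p did not overlap, with 103399 to 145158 CPM in WT and 76828 to 96962 in mutants of the virgin cohort. In the breeding trial cohort it had 113342 to 143518 CPM in WT and 89979 to 107794 in mutants. MiR-7a-5p and miR-7b-5p overlapped in both cohorts. Erythroid markers (2 of 3 measured, none at 0, miR-451a the most abundant in each library) had 4931 to 8959 CPM in WT and 7821 to 17924 in mutants of the virgin cohort, and 5744 to 8285 and 6699.8 to 10781 in the breeding trial cohort, with overlap in both. Leukocyte markers (4 of 4 measured, none at 0, miR-142 3p strands the most abundant in each library) had 795 to 1266 CPM in WT and 1149.9 to 1728 in mutants of the virgin cohort, which overlapped. Of their members, miR-223-3p (18.9 to 45.9 CPM in WT, 60.8 to 161 in mutants) and miR-150-5p (47.4 to 122 and 146 to 184) did not overlap. In the breeding trial cohort they had 583 to 948 CPM in WT, against 966 to 1165 for *Zeb1 200H* libraries and 1417 to 1865 for *Zeb1 200M* libraries, so that WT lay below all 6 mutant libraries, as in the CPM of miR-24-3p. Of the leukocyte members there, miR-223-3p did not overlap (59.5 to 97.1 CPM in WT, 155 to 228 in mutants). MiR-142a-3p (250 to 562 and 483 to 1262), miR-142a-5p (71.2 to 198 and 66.6 to 205), and miR-150-5p (104 to 202 and 160 to 399) overlapped. The part of these 3 lists in the levels of the guide strands was not tested.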

How the data were processed

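According to the paper's methods, the authors trimmed reads with cutadapt and counted those whose first 19 nt (virgin) or 18 nt (breeding trial) matched a dictionary of miRNAs. The deposited counts were used as they are. Each table compares a pair of groups, so each of the 21 libraries has a second copy in another table, and 21 were identical and 0 differed. The other columns hold the authors' size-factor scaled values, log2 fold changes, standard errors, Wald statistics, and p values, and were not used.

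CPM were computed from total counts. Groups were compared within a cohort in edgeR 4.0.16 (R 4.3.3) with TMM scaling, filterByExpr (minimum count 10, minimum total 15), and the quasi-likelihood F test, with Benjamini-Hochberg adjustment over all miRNAs tested and a threshold of 0.05. The SE is the absolute log2 fold change over the square root of F. DESeq2 1.42.0 and limma 3.58.1 (voom with quality weights) were run as alternatives. Log2 ratios of the a to the b paralog were compared by exact two-sided permutation tests (Python 3.11.15, scipy 1.17.1), with a pseudocount of 0.5 for passengers. Correlations used miRNAs with a mean count of at least 50. Clopper-Pearson intervals cover counting error only. Hairpin positions are from GENCODE.

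The genes named are the guide strands, the passenger strands of the same hairpins, the miR-3074 strands from the other strand of the miR-24 hairpins, the 3 miRNAs most correlated with miR-24-3p or miR-27b-3p, and the cell type markers. The members and lists were chosen with earlier results of these data known. The interaction was planned with miR-23a-3p and miR-23b-3p summed and miR-27a-3p and miR-27b-3p summed, and was run for miR-24-3p because the others were not analysed here in the breeding trial cohort. Libraries that share a replicate number were checked for pairing by correlating their residuals from the group means. In *Zeb1 200H* against WT of the breeding trial cohort each pair's r was above 0.1 (0.112, 0.1005, and 0.190). These values are low, and a single pair of virgin mutant libraries reached 0.2175. The labels name no pairs and libraries of unlike number were not compared, so pairing is not established. The main fits are therefore unpaired. With replicate number as a block, miR-24-3p had a log2 fold change of 0.13 in this comparison and was not called, beside 47 of 267 miRNAs. In the other comparisons at least 1 pair fell below.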

Additional observations from a re-analysis of the deposited data

Results flagged for a closer look

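In 38 groups of 4 libraries, the gap between an end library and its neighbour was compared with the group's range, and 8 groups had a library far from the rest. Chance does so in about 1 in 20 independent groups, but these groups share libraries, so the number is not judged against that rate. MiR-23a-3p had 7708 CPM in *Zeb1 200H* replicate 3, against 8393 to 8533 in the other 3 libraries, and 7424 CPM in *Zeb1 200M* replicate 4, against 8827 to 8977. MiR-27b-3p had 4292 CPM in *Zeb1 200M* replicate 1, against 4571 to 4618. MiR-24-2-5p had 213 CPM in *Zeb1 200H* replicate 3, against 286 to 292. In *Zeb1 200M* replicate 3 the log2 ratio of miR-24-2-5p to miR-24-1-5p was 2.16, against 2.93 to 3.08, and miR-24-3p had 64.4 reads per passenger read, against 33.8 to 36.7. MiR-23a-5p had 6.42 CPM in *Zeb1 200M* replicate 2, against 7.31 to 7.42, and miR-27a-5p had 2.22 CPM in *Zeb1 200H* replicate 4, against 3.67 to 3.92. These libraries are of the virgin cohort, and the cause was not tested.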

How the results depend on the processing

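MiR-24-3p was not called by edgeR in a fit with TMM scaling. Its calls with library totals alone in the breeding trial cohort (1 member in *Zeb1 200M* and 1 in *Zeb1 200H* against WT, beside 110 of 276 and 69 of 267 miRNAs) were the calls of guide strands found under the alternatives run. The 5 guide strands are well counted in the virgin cohort, and passengers of miR-23 and miR-27 are limited by depth. Reversals under library totals alone come with the shift that this scaling gives to the miRNAs of a comparison together (a median of 0.34 and 0.29 against WT in the virgin cohort), and are not read as differences of the strands. For the other reversals the cause was not tested. WT means without WT replicate 1 were chosen after seeing the data.

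MiRNAs called in *Zeb1 200M* against WT of the virgin cohort numbered 44, and 93 by DESeq2, 90 with all 3 genotypes in one fit, 184 by limma voom, 20 with the replicate block, and 25 to 168 leaving out 1 library. In *Zeb1 200H* against WT they numbered 34, and 73, 67, 152, 18, and 21 to 151. Between the mutants they numbered 15, and 5 in one fit. Breeding trial libraries gave 32 in *Zeb1 200H* against WT, and 69 with library totals alone and 47 with the replicate block. Between the mutants they numbered 3, and 5 by limma voom, 5 with the replicate block, and 3 to 5 leaving out 1 library. The block changed no call of a guide or passenger strand.

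The following are log2 fold changes that reversed. In *Zeb1 200M* against WT of the virgin cohort, library totals alone gave 0.32 for miR-23b-3p and 0.32 for miR-24-2-5p, no filter gave 0.045 and 0.0092, and the block gave 0.13 for miR-24-2-5p. In *Zeb1 200H* against WT, library totals gave 0.26 for miR-23b-3p, 0.14 for miR-24-1-5p, and 0.28 for miR-24-2-5p, and no filter gave 0.010 for miR-23b-3p. MiR-23b-5p had −0.025 with the size factors of DESeq2 in edgeR, −0.0061 in one fit, −0.44 by voom, and −0.33 with the block. Voom gave 0.063 for miR-24-1-5p and 0.071 for miR-24-2-5p, and the block 0.040 for miR-24-2-5p. MiR-24-3p had −0.030 by DESeq2, −0.030 with its size factors in edgeR, and −0.020 by voom. Between the mutants, library totals gave 0.046 for miR-23a-3p, 0.039 for miR-23a-5p, 0.038 for miR-24-2-5p, and 0.037 for miR-27a-3p. MiR-23a-3p had 0.0054 without a filter and 0.0025 by voom, miR-23a-5p 0.00019 with the block, and miR-24-2-5p 0.00070 without a filter. In the breeding trial cohort, miR-24-3p in *Zeb1 200M* against WT had 0.23 with library totals, 0.0031 in one fit, and 0.0023 with the block, and miR-24-2-5p had 0.13 with the block between the mutants. The interaction of miR-24-3p in *Zeb1 200H* was −0.017 with library totals. With summed counts the log2 ratio of miR-27-3p was above WT by 0.051 for *Zeb1 200M* libraries and 0.071 for *Zeb1 200H* libraries, and that of miR-27-5p by 0.0026 in *Zeb1 200H*.

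For miR-27b-3p of the virgin cohort, leaving out 1 library at a time gave 0.088 to 0.36 in *Zeb1 200M* against WT and 0.053 to 0.35 in *Zeb1 200H* against WT, with no reversal. For results with a reversal it gave these lowest and highest log2 fold changes. In *Zeb1 200M* against WT of the virgin cohort they were −0.10 to 0.061 for miR-23b-3p, −0.069 to 0.52 for miR-24-1-5p, and −0.17 to 0.12 for miR-24-2-5p. In *Zeb1 200H* against WT they were −0.13 to 0.049 for miR-23b-3p, −0.43 to 0.29 for miR-23b-5p, −0.46 to 0.12 for miR-24-1-5p, −0.13 to 0.030 for miR-24-2-5p, and −0.038 to 0.042 for miR-24-3p. Between the mutants they were −0.036 to 0.050 for miR-23a-3p, −0.18 to 0.078 for miR-23a-5p, −0.0084 to 0.038 for miR-23b-3p, −0.12 to 0.19 for miR-24-2-5p, −0.039 to 0.039 for miR-27a-3p, −0.46 to 0.084 for miR-27a-5p, −0.0052 to 0.028 for miR-27b-3p, and −0.023 to 0.15 for miR-27b-5p. For the breeding trial cohort they were −0.024 to 0.029 for miR-24-3p in *Zeb1 200M* against WT and −0.21 to 0.15 for miR-24-2-5p between the mutants. The interaction of miR-24-3p in *Zeb1 200M* was 0.010 without WT replicate 1. Differences of log2 ratios were −0.049 to 0.023 for miR-23-3p between the mutants and −0.19 to 0.040 for miR-27-3p in *Zeb1 200M* against WT. For miR-27-3p they were −0.16 to 0.062 in *Zeb1 200H* against WT and −0.054 to 0.018 between the mutants. In *Zeb1 200H* against WT they were −1.97 to 0.29 for miR-23-5p, −0.33 to 0.23 for miR-27-5p, and −0.13 to 0.51 for miR-24-5p of the virgin cohort, and −0.29 to 2.19 for miR-24-5p of the breeding trial cohort.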

Other observations

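MiR-143-3p, an endothelial and mural marker, had 26.1 CPM in *Zeb1 200M* replicate 3 of the virgin cohort, against 2172 to 2474 CPM in the other 3 *Zeb1 200M* libraries. In *Zeb1 200H* replicate 3 it had 591 CPM, against 1468 to 2008 CPM. In *Zeb1 200M* and *Zeb1 200H* the same library had the least miR-24-2-5p, with 162 and 213 CPM, whereas miR-24-3p in these libraries was 12717 and 11203 CPM, the highest of its group in *Zeb1 200M* and the lowest in *Zeb1 200H*. In WT the least miR-143-3p was in replicate 2 (1109 CPM) and the least miR-24-2-5p in replicate 1 (181 CPM). MiR-143-3p was singled out after its values were seen.

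MiR-3074 strands come from the minus strand of the miR-24 hairpins and had at most 18 reads in a virgin library (miR-3074-1-3p in *Zeb1 200M* replicate 4).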
